A study of Homo sapiens with 9 samples.

Results

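Non-homologous end joining rejoins the ends of a broken chromosome without a matching template, and its core genes were followed here in HMC3 cells given vehicle or either of 2 doses of the SLO compounds. The 8 genes were chosen by name, with earlier results of these data known, and no measured value entered the rule: XRCC5, XRCC6, PRKDC, LIG4, XRCC4, NHEJ1, DCLRE1C and TP53BP1. They are 8 of 61544 genes listed in the data, and all 8 were among the 14727 genes that passed the filter on low counts and were tested. RNA of 9 libraries was sequenced, 3 in each of 3 groups, after 6 days of treatment. SLO combined SBI-0206965 at 10 µM, O-151 at 1 µM and Lopinavir at 1 µM. SLO ½ held the same compounds at 5, 0.5 and 0.5 µM, and VEH held only DMSO, the solvent that all groups received. The compounds inhibit the autophagy kinase ULK1, the DNA glycosylase OGG1 and the maturation of Lamin A, in that order, so none of them is aimed at end joining itself. All groups share one genotype, labelled WT, and one line: HMC3 is a single clone of human embryonic microglia immortalized with SV40 large T antigen, a protein that binds p53 and RB.

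In this pathway, the Ku70 and Ku80 proteins form a ring that slides onto a broken DNA end, and the large kinase DNA-PKcs docks on it. The nuclease Artemis trims ends that cannot be joined directly, and DNA ligase IV, held by its partner XRCC4 and helped by XLF, seals them. 53BP1 gathers on the chromatin around a break and shields the ends from the resection that would commit them to homologous recombination.

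Reads on genes numbered 14834295 to 19674841 per library. Levels within a gene are given as CPM, counts scaled to library size with edgeR's TMM factors, and levels between genes as TPM, which is also scaled for gene length. Changes are log2 fold changes with their SE, and a gene was called when its p-value, from edgeR's quasi-likelihood test with Benjamini-Hochberg adjustment over the 14727 tested genes, was below 0.05. The labels do not say that replicates are separate cultures, so p-values measure only the spread between these libraries. Of 12 microglia markers, AIF1, CX3CR1, P2RY12, TMEM119, PTPRC and SPI1 had at most 3 counts in every library, so these 6 defining markers give no sign of the labelled cell type. Mitochondrial transcripts took 1.30% to 1.61% of VEH reads, against 2.30% to 2.86% under SLO ½ and 2.51% to 3.12% under SLO, and 16 proliferation markers summed to 7496 to 7761, 6166 to 6311 and 5601 to 5782 CPM in the same order. Microglia markers summed to 144 to 163 CPM in VEH, 182 to 193 with SLO ½ and 185 to 206 with SLO, and all 4 that were tested were higher in SLO. Of 8 mesenchymal markers 7 were tested, of which 3 were lower and 4 higher in SLO. Their sum was 24862 to 28473 CPM in VEH, 21462 to 22301 with SLO ½ and 17313 to 18183 with SLO, with FN1 lower (−0.87) and ACTA2 higher (4.09) at the full dose. FN1 made up most of that sum, at means of 22238.5, 16379.4 and 12139.8 CPM. COL1A1, the next largest, rose from 2368 to 2661 and 3309 CPM, so the sum mainly follows FN1. Of 9 neuron, astrocyte and oligodendrocyte markers, RBFOX3, AQP4 and MOG had at most 3 counts in every library, 5 were tested and 2 were higher in SLO, SLC1A3 by 1.17 and SNAP25 by 0.99, with sums of 22.2 to 28.2, 42.2 to 44.03 and 48.7 to 53.2 CPM in VEH, SLO ½ and SLO. These shifts ran alongside the changes from VEH described here, and their part in those changes was not tested. In bulk RNA, fewer cells expressing a gene and less of its RNA per cell cannot be told apart.

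At the full dose, 5 of the 8 genes fell, none rose and 3 did not pass the test. Those that fell were XRCC5, XRCC6, PRKDC, XRCC4 and TP53BP1, with log2 fold changes of −0.74 to −0.56, or losses of 32.3% to 40.0%. The median over all 8 was −0.57, beside 0.014 over all tested genes, of which the middle of the distribution, between its quartiles, ran from −0.29 to 0.41. The treatment moved much of the transcriptome, since 64.9% of tested genes were called in SLO against VEH, 32.1% as lower and 32.9% as higher. The 62.5% called among these 8 genes is near that background, and all 5 calls were in one direction. In 6 genes (the same 5 and NHEJ1) every SLO library lay below every VEH library, and in DCLRE1C above, while 66.7% of tested genes did not overlap between these groups, 33% being lower. At the lower dose, XRCC5, XRCC6, PRKDC and TP53BP1 fell, LIG4 rose and 3 genes did not pass, against 52% of tested genes called, 25.3% as lower and 26.7% as higher. XRCC4 also lay below VEH in every library, so 5 genes were lower and 1 higher without overlap, beside 58.3% of tested genes without overlap, 28.4% being lower. The median there was −0.19, beside 0.015 over all tested genes. The 2 comparisons share the VEH libraries, so they are not independent of each other.

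**Figure D1:**
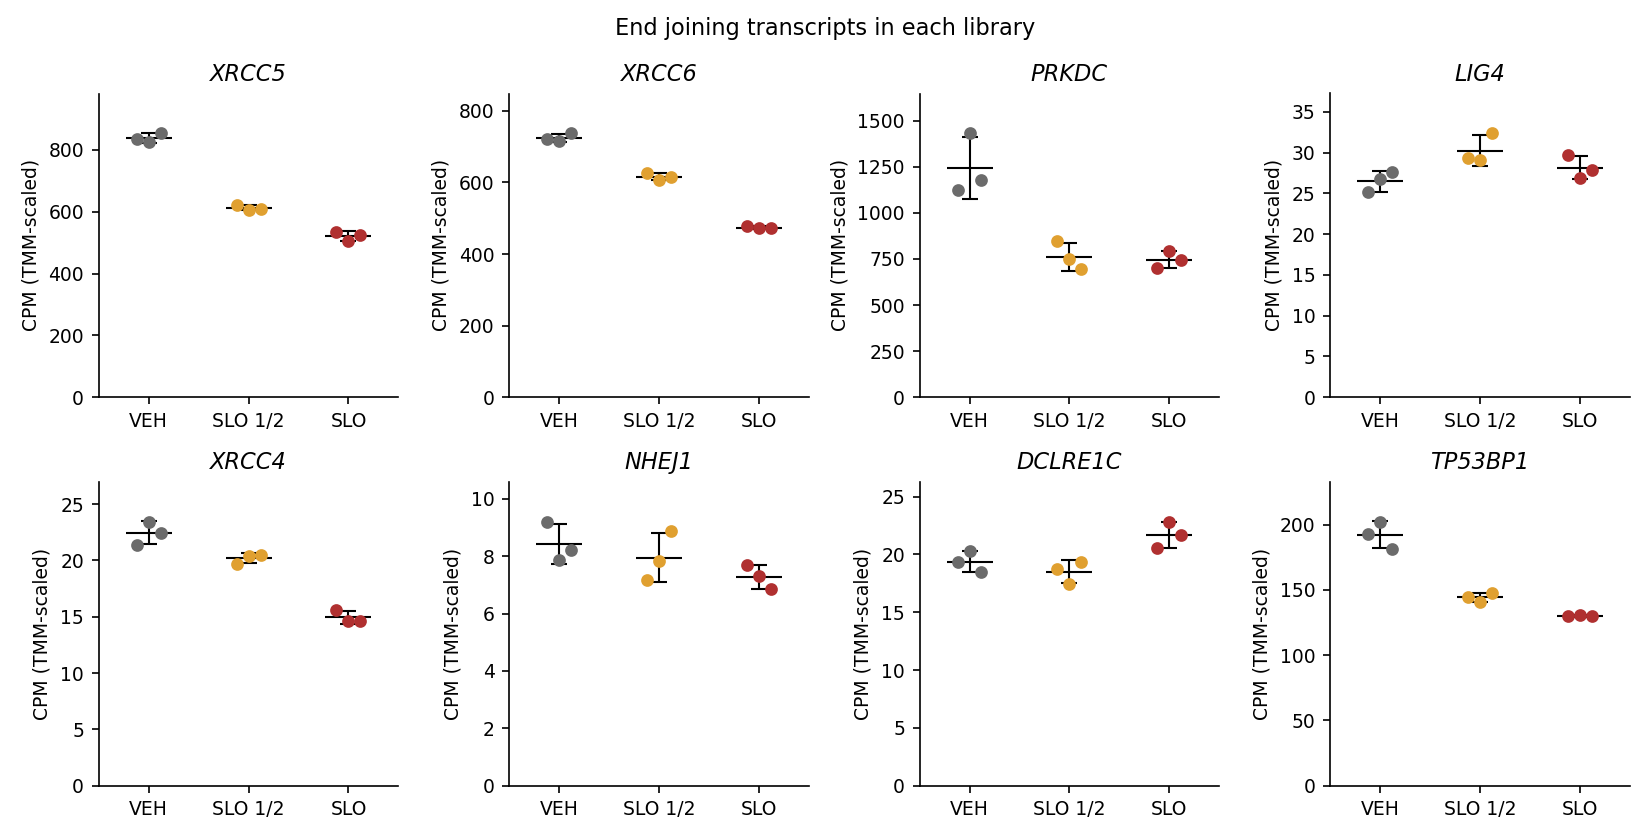
CPM (vertical axis, starting at 0) of each of the 8 end joining genes in the 9 libraries, with points for single libraries and bars for the mean and SD of 3 libraries per group. For XRCC5, XRCC6, XRCC4 and TP53BP1 the 3 groups descend from VEH to SLO ½ to SLO without overlap, while PRKDC lies at about the same level under both doses. In NHEJ1, SLO ½ overlaps both VEH and SLO, and SLO lies below VEH. LIG4 and DCLRE1C do not follow that order.

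The promoter regions of 4 of these genes are shown because each lies between the gene and a neighbour that is read in the opposite direction. The data thus give a second readout from the same stretch of DNA. For XRCC4 this holds by RefSeq starts only, since XRCC4 and its neighbour overlap by the coordinates in the data. Sequences are from RefSeq on GRCh38.p14 and were found for 6 of the 8 genes. Each is written 5′ to 3′ on the strand of the end joining gene and is limited to bases outside annotated exons. Capitals mark matches to the GC box GGGCGG on either strand. XRCC6 lies beside DESI1, XRCC4 beside TMEM167A, LIG4 beside ABHD13 and TP53BP1 beside MAP1A.
XRCC6 (chr22:41621045-41621162, plus strand): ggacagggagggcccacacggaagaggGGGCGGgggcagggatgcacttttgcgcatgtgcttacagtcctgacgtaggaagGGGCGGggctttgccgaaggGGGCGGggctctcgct
XRCC4 (chr5:83077454-83077497, plus strand): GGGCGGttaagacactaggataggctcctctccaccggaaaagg
LIG4 (chr13:108218369-108218391, minus strand): tccgagcatgcgcagaagccgct
TP53BP1 (chr15:43510729-43510890, minus strand): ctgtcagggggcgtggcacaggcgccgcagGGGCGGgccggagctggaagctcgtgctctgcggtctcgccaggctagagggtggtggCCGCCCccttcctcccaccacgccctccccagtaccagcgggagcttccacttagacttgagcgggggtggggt
In the RefSeq windows of 250 bases before to 50 after each start, the GC box was found 3 times for XRCC6, 2 times for TP53BP1 and NHEJ1, 1 time for XRCC4 and DCLRE1C, and not for LIG4. It is a common run of letters, present in 45% of all 35116 such windows, and a match is no evidence that a factor binds there. The CCAAT box, letters CCAAT, was present in the windows of XRCC6, XRCC4, DCLRE1C and TP53BP1 and in 34.6% of all windows. The E2F motif TTTGGCGC, present in 0.652% of all windows, was matched in that of XRCC6, and the ETS motif CCGGAAGT, present in 4.14%, in that of LIG4. The NRF1 motif, present in 5.78% of windows, was matched in none of the 6. Both strands were searched for each motif, and none of these letter runs contains another.

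The end-binding genes were the most abundant of the 8. XRCC6 encodes Ku70 and lies at chr22:41621163-41664048 on GRCh38 (ENSG00000196419.13). Its level was 721, 715 and 738 CPM in the VEH libraries, 626, 607 and 616 in SLO ½, and 479, 472 and 472 in SLO. Every library lay below every library of the next lower dose. It fell by 0.23 (SE 0.0374, adjusted p = 5.43e-06) at the lower dose and by 0.61 (SE 0.0377, adjusted p = 2.01e-14) at the full dose on the log2 scale, and by 0.38 (SE 0.0377, adjusted p = 3.21e-09) between doses. The processed copies XRCC6P1 to XRCC6P5 had at most 5 counts in a library. Only uniquely aligned reads are counted, so reads that match both XRCC6 and a copy are left out of both.

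XRCC5 encodes Ku80, the partner of Ku70, and lies at chr2:216107464-216206303 (ENSG00000079246.16). It gave 835, 824 and 854 CPM in VEH, 621, 606 and 609 in SLO ½, and 535, 504 and 524 in SLO, again without overlap between groups. On the log2 scale it fell by 0.45 (SE 0.0385, adjusted p = 7.23e-11) at the lower dose, by 0.69 (SE 0.0388, adjusted p = 2.94e-15) at the full dose and by 0.23 (SE 0.0388, adjusted p = 1.53e-05) from SLO ½ to SLO. As percentages, XRCC5 lost 26.9% and XRCC6 15.0% at the lower dose, and 37.9% and 34.6% at the full dose.

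Ku70 and Ku80 act as a pair with one copy of each, so the relative level of their transcripts was followed per library. XRCC6 TPM per XRCC5 TPM was 1.45, 1.46 and 1.45 in VEH, 1.70, 1.69 and 1.70 in SLO ½, and 1.51, 1.58 and 1.52 in SLO. The ratio was highest at the lower dose, lowest in VEH and between them at the full dose, with no overlap between any groups. Its means were 1.46 ± 0.0043, 1.69 ± 0.00837 and 1.53 ± 0.0368 (SD, n = 3). Each of the 3 pairwise differences gave p = 0.1 in a two-sided exact permutation test of the log2 ratio, the smallest p that 3 libraries against 3 allow, so none could pass 0.05 and none would pass after adjustment.

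**Figure D2:**
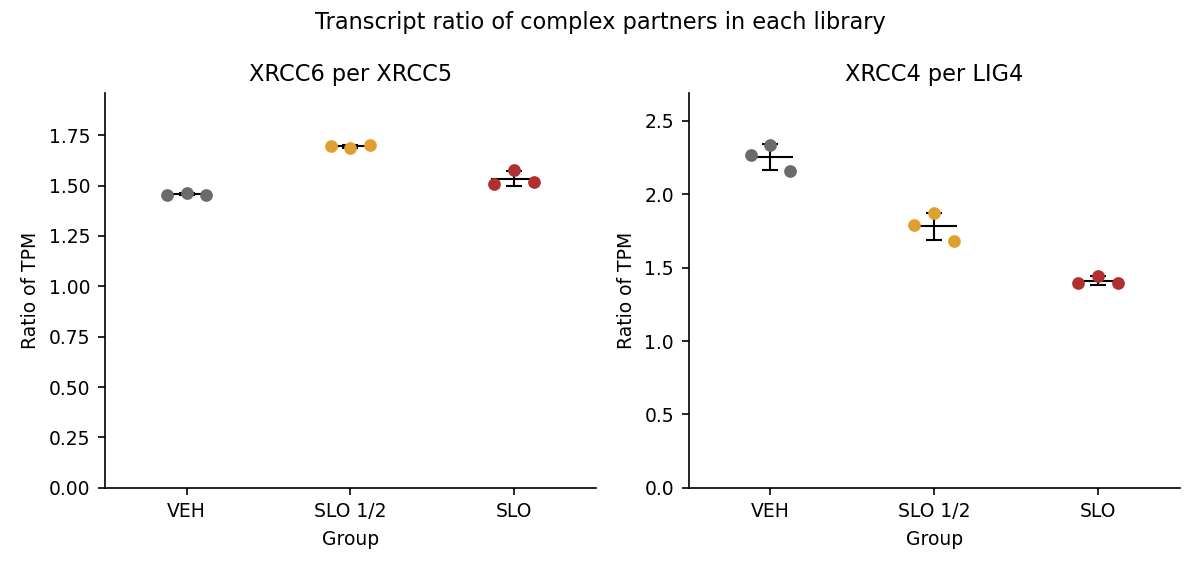
Ratio of TPM per library for XRCC6 over XRCC5 and for XRCC4 over LIG4 (vertical axes), with points for libraries and bars for the mean and SD of 3 libraries per group. The Ku ratio is highest in SLO ½ at 1.69 and the XRCC4 over LIG4 ratio descends from 2.25 in VEH to 1.41 in SLO.

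PRKDC encodes DNA-PKcs, the kinase recruited by Ku, and lies at chr8:47773111-47960178 (ENSG00000253729.8). Its 11159 to 22516 counts per library were the most of the 8 genes. The VEH libraries gave 1122, 1433 and 1176 CPM, the SLO ½ libraries 845, 749 and 694, and the SLO libraries 702, 795 and 742. VEH replicate 2 stood above the other VEH libraries, and all 6 treated libraries lay below all 3 VEH libraries. PRKDC fell by 0.71 (SE 0.0668, adjusted p = 6.03e-10) at the lower dose and by 0.74 (SE 0.0669, adjusted p = 9.13e-11) at the full dose on the log2 scale. Without VEH replicate 2 the fall at the full dose was 0.63. The doses overlapped, and SLO differed from SLO ½ by −0.032 (95% interval −0.17 to 0.11, adjusted p = 0.737), a difference whose sign changed with the setting. As percentages, PRKDC lost 38.7% at the lower dose and 40.0% at the full dose.

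DCLRE1C encodes Artemis, the nuclease that DNA-PKcs activates, and lies at chr10:14897359-14954432 (ENSG00000152457.18). Its CPM was 19.4, 20.3 and 18.5 in VEH, 18.7, 17.4 and 19.3 in SLO ½, and 20.5, 22.8 and 21.7 in SLO. The SLO libraries all lay above the others, whereas VEH and SLO ½ overlapped. SLO exceeded SLO ½ by 0.23 (SE 0.0747, adjusted p = 0.0145). That call was lost without SLO ½ replicate 2 (0.19, adjusted p = 0.0843), without SLO replicate 2 (0.19, adjusted p = 0.0797), and with limma on unfiltered log2(TPM + 1) (adjusted p = 0.0566), in a range of 0.00780 to 0.0843 over the alternatives. Against VEH, the change was 0.17 (95% interval 0.012 to 0.32, adjusted p = 0.0534) in SLO and −0.064 (95% interval −0.22 to 0.091, adjusted p = 0.504) in SLO ½, neither past the threshold. The first lay near it, with adjusted p from 0.00674 to 0.203 over the alternatives. Without VEH replicate 2 it was called (0.19, adjusted p = 0.0449), as it was without SLO replicate 1 (0.20, adjusted p = 0.0361). The copy DCLRE1CP1 had at most 2 counts of uniquely aligned reads in a library.

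The genes of the ligation step did not move together. XRCC4, the scaffold that stabilizes DNA ligase IV, lies at chr5:83077498-83353787 (ENSG00000152422.16). It gave 21.4, 23.4 and 22.5 CPM in VEH, 19.7, 20.4 and 20.5 in SLO ½, and 15.6, 14.6 and 14.6 in SLO. No groups overlapped, but the lower dose lay much nearer VEH than the full dose did. The full dose lowered XRCC4 by 0.59 on the log2 scale (SE 0.0749, adjusted p = 7.31e-08), or 33.4%, and by 0.44 against the lower dose (SE 0.0757, adjusted p = 2.90e-05). At the lower dose the change of −0.15 (SE 0.0705, adjusted p = 0.0738) was not called. It was called with TPM in place of counts (−0.19, adjusted p = 0.0105) and without VEH replicate 1 (adjusted p = 0.0453), in a range of 0.0102 to 0.238 over the alternatives.

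LIG4, which encodes the ligase itself, lies at chr13:108207439-108218368 (ENSG00000174405.15). Its CPM was 25.1, 26.7 and 27.7 in VEH, 29.4, 29.0 and 32.4 in SLO ½, and 29.7, 26.9 and 27.9 in SLO. The SLO ½ libraries all lay above the VEH libraries, and the SLO libraries overlapped both groups. LIG4 rose by 0.19 (SE 0.0666, adjusted p = 0.0195) at the lower dose, the only rise against VEH called among the 8. That call did not survive leaving out VEH replicate 1 (adjusted p = 0.0906) or SLO ½ replicate 3 (adjusted p = 0.145), nor DESeq2 (adjusted p = 0.0701), and its adjusted p ranged from 0.00380 to 0.202 over the alternatives. The full dose gave 0.085 (95% interval −0.054 to 0.22, adjusted p = 0.275), and SLO differed from SLO ½ by −0.10 (95% interval −0.24 to 0.034, adjusted p = 0.231).

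XRCC4 TPM per LIG4 TPM was 2.25 ± 0.0883 under VEH, 1.78 ± 0.0942 under SLO ½ and 1.41 ± 0.0293 under SLO (SD, n = 3), a ratio chosen after its values were seen and therefore not tested. It descended with dose, and its groups did not overlap.

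NHEJ1 encodes XLF, which bridges the ends beside XRCC4, and lies at chr2:219069357-219160865 (ENSG00000187736.13). It was the sparsest of the 8, with 103 to 157 counts per library. Its CPM was 9.21, 7.88 and 8.20 in VEH, 7.15, 7.83 and 8.87 in SLO ½, and 7.69, 7.30 and 6.85 in SLO. SLO lay below VEH in every library, and SLO ½ overlapped both. The changes of −0.21 at the full dose (95% interval −0.44 to 0.028, adjusted p = 0.115), −0.085 at the lower dose (95% interval −0.31 to 0.14, adjusted p = 0.551) and −0.12 between doses (95% interval −0.36 to 0.11, adjusted p = 0.421) did not pass. The fall of TP53BP1 at the full dose, by 0.56, is larger than the full-dose interval of NHEJ1 allows. In the GENCODE annotation, another gene on the same strand, ENSG00000280537, covers 19.5% of the exon bases of NHEJ1. Reads there cannot be assigned to either gene and are left uncounted. The NHEJ1 level may therefore be an underestimate, and the loss was not measured. None of the other 7 genes shares exon bases on its strand with another listed gene.

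TP53BP1 encodes 53BP1 and lies at chr15:43403061-43510728 (ENSG00000067369.14). Its level was 193, 202 and 181 CPM in VEH, 145, 141 and 148 in SLO ½, and 130.0, 131 and 129.7 in SLO. The groups stepped down without overlap, and the 3 SLO libraries lay close together. TP53BP1 fell by 0.41 (SE 0.0421, adjusted p = 2.51e-09) at the lower dose and by 0.56 (SE 0.0426, adjusted p = 1.92e-12) at the full dose on the log2 scale, or by 24.9% and 32.3%. The step between doses was −0.15 (SE 0.0431, adjusted p = 0.00607). It was not called by limma on TPM, with adjusted p from 0.0814 to 0.151 in 3 variants.

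**Figure D3:**
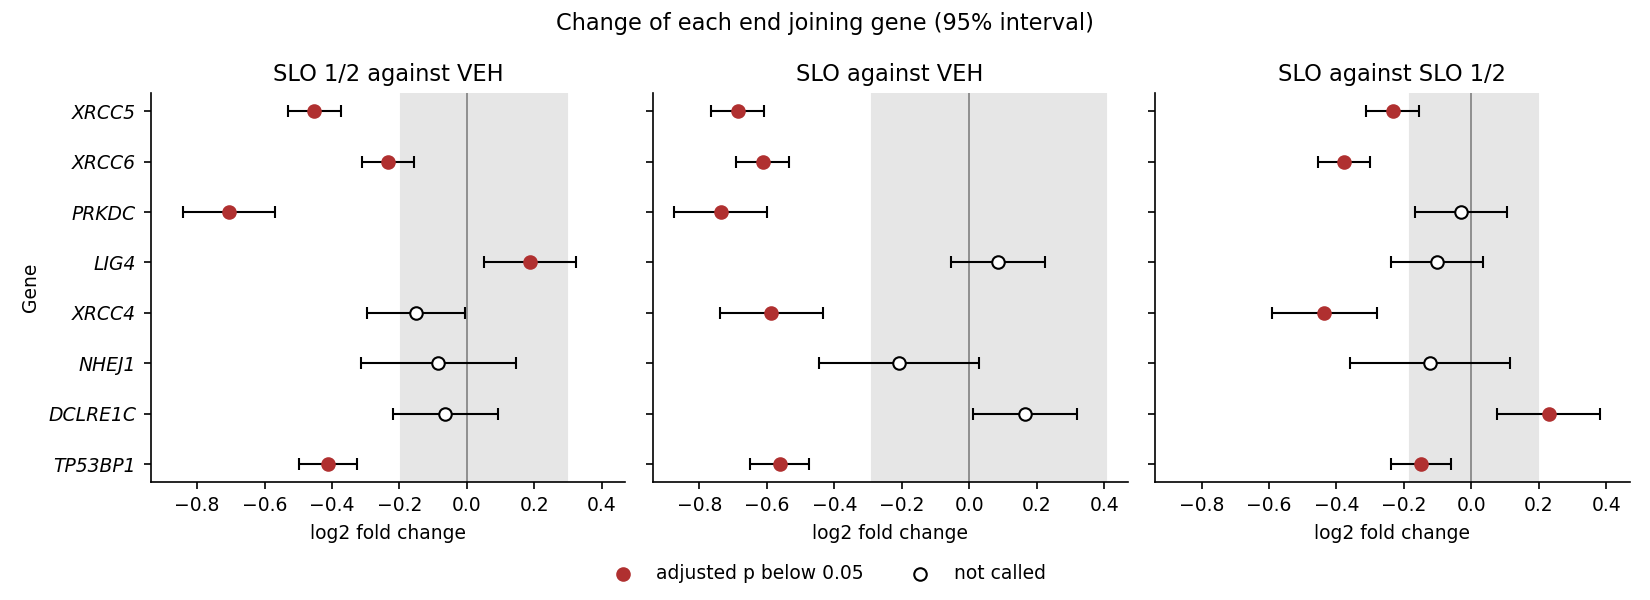
Log2 fold change (horizontal axis) with its 95% interval for each of the 8 genes in the 3 comparisons, with filled points for adjusted p below 0.05 and a grey band between the quartiles of all tested genes. At the full dose 5 points lie below −0.5 and outside the band, and PRKDC alone of these stands near 0 in the panel that sets SLO against SLO ½.

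Between the doses, 4 of the 8 genes were lower in SLO (XRCC5, XRCC6, XRCC4 and TP53BP1), DCLRE1C was higher and 3 did not pass, where 41.1% of tested genes were called, 20.3% as lower and 20.8% as higher. The same 5 genes did not overlap between the doses, and neither did 51% of tested genes, 25.6% being lower. The median over the 8 was −0.14, beside −0.0014 over all tested genes. XRCC4 and XRCC6 had the widest steps between doses of the 8, and PRKDC the narrowest.

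On the length-scaled TPM, the 8 genes kept one order in all groups: XRCC6, XRCC5, PRKDC, TP53BP1, XRCC4, LIG4, DCLRE1C and NHEJ1. No neighbours in that order overlapped in any group. In VEH the levels were 1051 ± 20.004 TPM for XRCC6, 722 ± 14.7 for XRCC5, 379.9 ± 52.2 for PRKDC and 69.7 ± 3.79 for TP53BP1 (SD, n = 3). The 4 lowest were XRCC4 at 39.4 ± 2.01, LIG4 at 17.5 ± 0.949, DCLRE1C at 9.51 ± 0.445 and NHEJ1 at 4.37 ± 0.332 TPM. Thus the end-binding proteins had far more transcript than the ligase and nuclease genes. The summed TPM of the 8 genes was 2293 ± 56.4 under VEH, 1724 ± 56.0 under SLO ½ and 1463 ± 7.36 under SLO. XRCC6 and XRCC5 held 45.9% and 31.5% of that sum in VEH, 50.4% and 29.7% in SLO ½, and 46.8% and 30.5% in SLO. The share of LIG4 was 0.763% under VEH, 1.13% under SLO ½ and 1.27% under SLO.

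**Figure D4:**
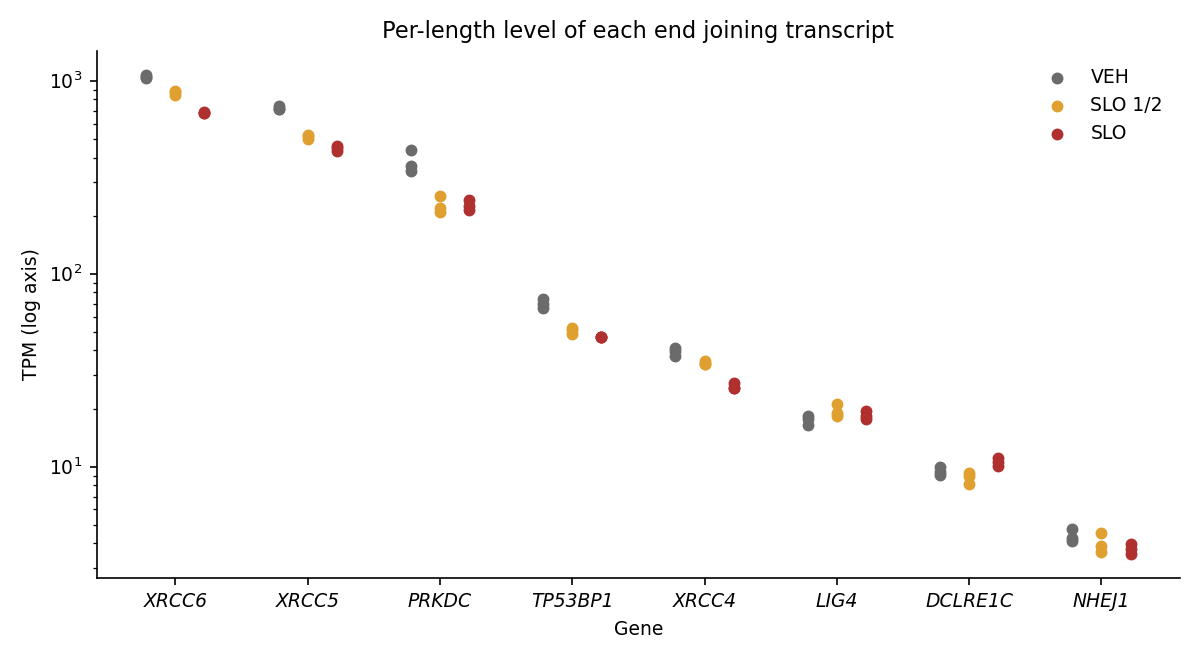
TPM on a log axis for the 8 genes, ordered by their level in VEH, with a point for each library coloured by group. The order from XRCC6, at 1051 TPM in VEH, to NHEJ1, at 4.37 TPM, is the same in VEH, SLO ½ and SLO.

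Across the 9 libraries, log2 CPM of the members was correlated as a description, since the libraries share groups and depth. Pearson's r was 0.972 for XRCC5 with TP53BP1, 0.973 for XRCC6 with XRCC4 and 0.949 for XRCC5 with XRCC6. PRKDC was nearest to TP53BP1 at 0.930, and DCLRE1C ran opposite to XRCC4 at −0.731. Among the 10876 candidates, tested genes whose log2 CPM averaged 2 or more, the nearest in pattern to XRCC5 were DEK (r = 0.998) and ANP32E (0.997), to XRCC6 PKM (0.999) and TUBA1B (0.998), and to PRKDC CENPF (0.994) and NF1 (0.993). TP53BP1 was nearest to XYLB (0.999) and FOXJ2 (0.998), and XRCC4 to CCT6A (0.993) and DPP9 (0.992). The genes nearest to the 3 not called at the full dose were PRMT9 (0.943) and TRPC4AP (0.937) for LIG4, BANP (0.932) and KMT5C (0.906) for NHEJ1, and NUFIP2 (0.968) and SUOX (0.950) for DCLRE1C. These values of r, the highest of many over few libraries in 3 groups, only describe pattern. How common such values are was not measured, and shared control was not tested.

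The genes read away from the same promoter regions were then compared with the end joining gene. By the coordinates in the data, 7 bases separate the starts of PRKDC and MCM4, which encodes a subunit of the replicative helicase, 24 those of LIG4 and ABHD13, 120 those of XRCC6 and DESI1, and 230 those of TP53BP1 and MAP1A. XRCC4 and TMEM167A overlap in the data and lie 153 bases apart by their RefSeq starts. For XRCC5, NHEJ1 and DCLRE1C no opposite start lay within 1000 bases. DESI1 rose while XRCC6 fell, from 39.5 CPM in VEH to 43.6 in SLO ½ (0.14, adjusted p = 0.0384) and 46.0 in SLO (0.21, adjusted p = 0.00150). MAP1A, which encodes a microtubule-binding protein, rose while TP53BP1 fell, from 39.8 to 50.7 (0.35, adjusted p = 1.09e-05) and 58.8 CPM (0.56, adjusted p = 1.40e-09). TMEM167A rose from 144 to 168 (0.23, adjusted p = 3.53e-05) and 181 CPM (0.33, adjusted p = 5.66e-08), while XRCC4 fell at the full dose. In contrast, MCM4 fell as PRKDC did, though by less, from 507 to 437 (−0.21, adjusted p = 4.86e-05) and 415 CPM (−0.29, adjusted p = 2.82e-07). ABHD13 was not called, at −0.039 (adjusted p = 0.686) and −0.064 (adjusted p = 0.462). At the full dose, 3 of the 4 partners of genes that fell were called higher, beside 32.9% of all tested genes. TMEM167A is among these 3 by its RefSeq start only.

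The other genes of end joining and break repair were taken from lists of known members. Over all tested genes, 64.9% were called in SLO, 32.1% as lower and 32.9% as higher. In SLO ½, 52% were called, 25.3% as lower and 26.7% as higher. The counts of each list below stand beside these shares. Of 9 accessory end joining factors 8 were tested, of which 3 were lower, 1 higher and 4 not called in SLO, with a median of −0.13. IFFO1, a lamin-bound scaffold for XRCC4, rose from 14.1 CPM in VEH to 25.1 in SLO ½ and 33.1 in SLO (1.24 at the full dose, adjusted p = 4.47e-14). CYREN, APTX and WRN were lower, by 0.15 to 0.25 on the log2 scale. At the lower dose IFFO1 was higher and WRN and POLL lower, the last of these a gap-filling polymerase (−0.27, adjusted p = 0.0257).

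Among 8 genes that act with or on 53BP1, 5 were lower, 1 higher and 2 not called in SLO, with a median of −0.40, and 4 were lower and 1 higher in SLO ½, with a median of −0.28. RIF1, which 53BP1 recruits to block resection, went from 348 CPM in VEH to 252 in SLO ½ and 236 in SLO (−0.56 at the full dose, adjusted p = 2.55e-10). PAXIP1, another 53BP1 partner, went from 42.4 to 31.9 and 25.7 CPM (−0.73, adjusted p = 2.76e-11). The shieldin subunit gene MAD2L2 went from 33.4 to 26.6 and 22.2 CPM (−0.59, adjusted p = 6.70e-09), and USP28 from 65.7 to 45.3 and 48.7 CPM (−0.43, adjusted p = 1.48e-08). NUDT16L1, which encodes TIRR, an inhibitor that keeps 53BP1 off chromatin, rose from 6.88 to 9.18 and 9.09 CPM (0.40, adjusted p = 0.00555).

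Of 9 break sensing and signalling genes, 3 were lower, 2 higher and 4 not called in SLO, with a median of 0.0052. In SLO ½, 2 were lower and 1 higher. The 3 of 9 lower in SLO are near the 32.1% of all tested genes called lower there. ATM, the kinase that signals breaks, was lower at −0.33 (adjusted p = 6.83e-06), as were NBN at −0.32 (adjusted p = 2.00e-07) and MRE11 at −0.21. CHEK2 was higher at 0.39 (adjusted p = 1.19e-04) and RNF168 at 0.25. H2AX, whose protein is phosphorylated at breaks, gave 96.5, 96.2 and 96.9 CPM in VEH, SLO ½ and SLO (0.0052 at the full dose, adjusted p = 0.929). RAD50, named after its values were seen, gave 1.44 CPM in VEH. ENSG00000283782 covers 76.9% of its exon bases on the same strand, where reads are left uncounted, so the RAD50 value is not a measure of its level. RAD50 is still among the 4 genes not called in SLO and enters the median of this list.

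The competing repair routes were also followed, beside 64.9% of all tested genes called in SLO and 52% in SLO ½. Of all tested genes, 32.1% were lower in SLO and 25.3% in SLO ½. Of 8 alternative end joining genes, 4 were lower and none higher at each dose, with medians of −0.24 in SLO and −0.16 in SLO ½. LIG3, the ligase of that route and of single-strand breaks, went from 45.9 CPM in VEH to 32.4 in SLO ½ and 22.4 in SLO (−1.03 at the full dose, adjusted p = 1.50e-13), a larger fitted change than that of any of the 8 end joining genes. PARP1 was lower at −0.49 (adjusted p = 4.25e-12), and PARP2 and XRCC1 at −0.38 and −0.47, whereas POLQ, the polymerase of that route, was not called (0.068, adjusted p = 0.318). Of 15 homologous recombination genes, 7 were lower and 2 higher in SLO, with a median of −0.11, and 8 were lower and 1 higher in SLO ½, with a median of −0.14. BRCA1 was lower at −0.52 (adjusted p = 2.38e-12) and BARD1, its partner, higher at 0.25 in SLO. Of 12 base excision repair genes, 5 were lower and 3 higher in SLO, with a median of 0.068. In SLO ½, 2 were lower and 2 higher, with a median of −0.027. The lymphocyte genes that use this pathway to rearrange receptors were nearly silent, with RAG2 and DNTT at no more than 3 counts in every library and RAG1 at group means of 1.36 to 1.58 CPM.

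**Figure D5:**
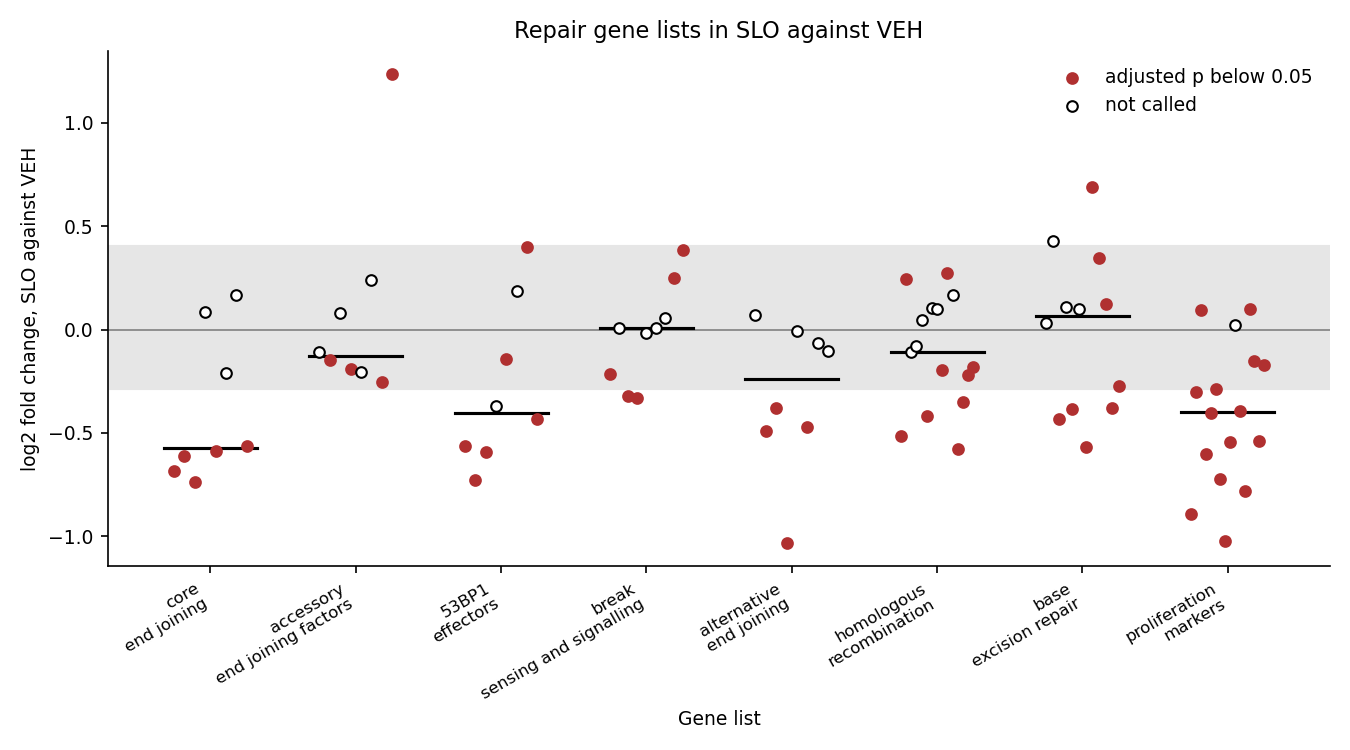
Log2 fold change of SLO against VEH (vertical axis) for each tested gene of the 8 end joining genes and of the lists of repair genes and markers, with filled points for adjusted p below 0.05, a line at the median of each list and a grey band between the quartiles of all tested genes. The end joining genes have a median of −0.57, the 53BP1 effectors of −0.40 and the break sensing genes, RAD50 included, of 0.0052.

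Most of the proliferation genes fell alongside the end joining genes. Of the 16 markers, 13 were lower and 2 higher in SLO and 12 were lower and none higher in SLO ½, with medians of −0.40 and −0.25. Over all tested genes, 32.1% were lower in SLO and 25.3% in SLO ½. The 2 higher in SLO were PCNA (0.097, adjusted p = 0.0279) and TYMS (0.099, adjusted p = 0.0281). MKI67, which marks cycling cells, gave 1369 to 1616 CPM under VEH, 914 to 1017 under SLO ½ and 753 to 837 under SLO.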

How the data were processed

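RNA of HMC3 cells was measured in 9 libraries, 3 each of VEH, SLO ½ and SLO. Polyadenylated RNA was made into stranded libraries with the KAPA RNA HyperPrep kit. The authors trimmed reads with Trimmomatic 0.38 and aligned them to GRCh38 with STAR 2.7.1a. The deposited counts are whole numbers of uniquely aligned reads per gene from STAR, without normalization. The deposited TPM were also made by the authors, and how they set gene length is not given in the sources used here. Reads of 4 kinds without a gene stayed out of library sizes: reads without a match (0.883% to 0.984%), with several matches (7.16% to 8.52%), off any gene (5.54% to 8.38%) and on more than 1 gene (3.03% to 3.26%).

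The counts were fitted with edgeR 4.0.16 under R 4.3.3: filterByExpr (14727 genes kept of 32299 with at least 1 count), TMM factors (0.968 to 1.035) and a quasi-likelihood fit of the 3 groups to all 9 libraries. Groups came from the sample labels. A gene was called at Benjamini-Hochberg adjusted p below 0.05. Alternatives were DESeq2 1.42.0, its size factors, library size only, other filters on low counts, only the groups compared, a replicate block, limma 3.58.1 on log2(TPM + 1) or log2(TPM + 0.1), and each library left out. Exon sharing used the GENCODE annotation, and promoters came from RefSeq. Named were the 8 genes, called members of the lists, partners with an opposite start within 1000 bases, copies of the members, and the 2 genes nearest in pattern. H2AX, POLQ, RAG1, RAG2, DNTT and RAD50 are also named, a choice made once values were known. The 8 genes and the lists were chosen with earlier results of these data known. An accessory end joining factor is not reported here, so the counts and median of that list cover its other genes only.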

Additional observations from a re-analysis of the deposited data

Results flagged for a closer look

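The test between doses called 5 of the 8 genes, which SLO and SLO ½ changed unlike each other (edgeR's quasi-likelihood test). Of all tested genes, 41.1% were called between doses, 20.3% as lower and 20.8% as higher. SLO was lower than SLO ½ by log2 fold changes of -0.23 for XRCC5 (adjusted p = 1.53e-05), -0.38 for XRCC6 (adjusted p = 3.21e-09), -0.44 for XRCC4 (adjusted p = 2.90e-05) and -0.15 for TP53BP1 (adjusted p = 0.00607). DCLRE1C was higher in SLO by 0.23 (adjusted p = 0.0145). In XRCC5, XRCC6 and TP53BP1 the lower dose already lay below VEH, in XRCC4 the change at the lower dose did not pass the test, and in DCLRE1C neither dose passed against VEH. The DCLRE1C call was lost without SLO ½ replicate 2 (adjusted p = 0.0843) and without SLO replicate 2 (adjusted p = 0.0797), and the TP53BP1 call with limma on TPM (adjusted p from 0.0814 to 0.151).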

How the results depend on the processing

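The calls of XRCC5, XRCC6, PRKDC and TP53BP1 against VEH at both doses, and of XRCC4 at the full dose, held under every alternative run. The number of the 8 genes called was 5 to 7 at the full dose, 4 to 5 at the lower dose and 3 to 5 between doses. The lowest of these, 3, came from unfiltered log2(TPM + 1) with limma, where 5 were called with counts. As each library was left out, the numbers were 5 to 6, 4 to 5 and 4 to 5, and calls over all tested genes were 9015 to 9604, 6845 to 7745 and 5231 to 6277. The PRKDC difference of SLO against SLO ½ changed sign, to 0.0059 with limma on log2(TPM + 1), filtered or not, 0.0059 with log2(TPM + 0.1), 0.047 without SLO ½ replicate 1 and 0.010 without SLO replicate 1 (-0.096 to 0.047 as each library was left out), and the cause was not tested. With library size only, the median of all genes moved to 0.089 in SLO and 0.065 in SLO ½, and DCLRE1C (0.24, adjusted p = 0.00674) and LIG4 (0.16, adjusted p = 0.0408) were called in SLO. The Ku ratio kept its direction in all 21 repeats, but these could not have come out otherwise. Its groups did not overlap, so leaving out a library cannot turn the sign. The ratio of CPM differs from that of TPM only by the scaling for gene length.

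Replicate numbers are shared between groups. Deviations from the group means correlated at 0.0028 to 0.0873 over 9 same-numbered pairs, all positive, and at -0.062 to 0.037 over 18 others. Whether the numbers mark libraries handled together was not tested. A replicate block called 5 of the 8 genes in each comparison, as without it, and 9622, 7749 and 6162 genes in all. It changed no call of the 8. Depth limits NHEJ1 most, with 103 to 157 counts.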
